A study of Mus musculus with 20 samples.

Results

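App, the gene of the amyloid precursor protein, was followed in mouse microglia with 8 genes that act beside it or on its product: Aplp2, Bace1, Psen2, Ncstn, Adam10, Adam17, Ide and Sorl1. The genes were taken by their symbols, and all 9 were found among the 21315 gene symbols of the deposited tables. Each has 1 protein-coding entry in GENCODE M21 (GRCm38, the mouse assembly also named mm10). Their reads were compared across 6 conditions of genotype and cell sorting.

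Bulk RNA-seq of brain microglia from mice of 9 months on the C57BL/6 background gave 20 libraries. In 6 of them the cells were labelled C3aR-positive, from 3 WT and 3 APP-KI samples of mice with a Td-tomato reporter of C3ar1, the gene of the complement C3a receptor. The other 14 held CD45- and CD11b-sorted microglia with no selection on C3aR, from 3 WT, 3 APP-KI, 3 C3aR-KO and 5 APP-KI; C3aR-KO samples, the last called double-mutant in what follows. APP-KI mice carry a humanized, mutated App at its own locus and under its own promoter, so the App reads of APP-KI and double-mutant libraries come from the edited gene. C3aR-KO mice lack C3ar1 function in all tissues from the germline on. Both sexes were used in the study, but the labels do not give the sex of a library. Nor do they say that libraries of a group came from separate mice, so p-values measure the spread between these libraries, which may be partly technical.

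APP is a membrane protein with a short cytoplasmic tail, and APLP2 is its close relative. Cutting by the α-secretases ADAM10 and ADAM17 falls within the Aβ sequence and prevents Aβ formation, whereas cutting by the β-secretase BACE1 and then by γ-secretase, a membrane complex that holds a presenilin such as PSEN2 together with nicastrin (NCSTN), releases Aβ. Insulin-degrading enzyme (IDE) breaks Aβ down, the sorting receptor SORL1 routes APP away from the compartments where it is cut, and microglia are best known in this pathway for the uptake and breakdown of Aβ.

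The libraries held between 13939559 and 76608464 reads. Levels are given as scaled values, which are the deposited values multiplied by 1 constant and lie near CPM (counts scaled to a common library total). A read was detected on 14888 to 17450 genes in 15 libraries. It was detected on only 12387 to 13250 genes in 4 libraries (APP-KI replicate 4, C3aR-KO replicates 1 and 2, and double-mutant replicate 1), and on 21219 genes in APP-KI replicate 5. The differences of the 9 genes that rest on those 4 libraries are given with and without them. C3ar1 served to check the labels. Its scaled value was 276, 329.9 and 340 in WT and 68.1, 39.9 and 65.7 in C3aR-KO (log2 fold change -2.39, limma adjusted p = 0.00339). It was 165, 315 and 388 in APP-KI and 80.4, 77.4, 69.4, 75.9 and 61.9 in double-mutant libraries (-1.95, limma adjusted p = 0.00972). In WT, C3ar1 went against the label of the sort. It was 71.0, 81.2 and 37.6 in the libraries labelled C3aR-positive WT, at the level of the C3aR-KO libraries, and 383, 251 and 201 in those labelled C3aR-positive APP-KI. The libraries labelled C3aR-positive come from mice of the reporter line and also form a library series of their own by their numbers. Sort, reporter line and library series thus cannot be told apart.

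Microglial markers (7 genes) had summed scaled values of 7785 to 26766, far above every other marker list, but were lower with the App knock-in, at 15074 to 16508 against 21195 to 22978 in the labelled C3aR-positive libraries and 9222 to 20544 in APP-KI against 24253 to 26766 in WT, without overlap. Border macrophage markers were lower in the same way, at 182 to 404 against 466 to 694 and 259.9 to 288 against 439 to 1169. The endothelial list was higher in sum with the knock-in, at 171 to 326 against 46.3 to 92.5 and 203 to 258 against 48.5 to 59.4. Of its 6 genes, 2 were below 1 in all labelled C3aR-positive APP-KI libraries and 1 in all labelled C3aR-positive WT libraries. The rise of the sum there thus does not rest on all 6. In the labelled C3aR-positive libraries astrocyte markers were lower (223 to 280.4 against 302 to 403) and oligodendrocyte markers higher (194 to 213 against 139.6 to 187), while both overlapped between APP-KI and WT. Over all libraries these lists summed to 212 to 403 and 107 to 229, of the order of App itself (258 to 682), and neuronal markers to 0.0452 to 36.5. The part of these lists in the results was not tested. In such bulk samples, fewer cells of a type and less RNA per cell cannot be told apart.

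Aplp2 rose about 4-fold with the App knock-in in the labelled C3aR-positive libraries, in unselected microglia and in microglia without C3ar1. Adam10 fell in the first and the second of these comparisons, but these calls were lost in 10 of 16 and in 17 of 28 alternatives. App, Ncstn and Sorl1 rose in the labelled C3aR-positive libraries, and a difference of their changes from those in unselected microglia did not pass its own test. In the labelled C3aR-positive comparison, 5 of the 9 genes passed a limma adjusted p under 0.05, beside 22.7% of 12312 genes tested; 4 of them were higher and 1 was lower. The split of all genes called there, 1602 higher and 1196 lower, became 1832 and 643 with median ratio scaling, 1770 and 659 with edgeR and 2225 and 950 with DESeq2, with 5, 5 and 6 of the 9 genes higher and 0 lower. In APP-KI against WT, 1 gene rose and 1 fell, beside 2.22% and 1.93% of 12407 genes (4.14% together). In double-mutant against C3aR-KO libraries, 1 gene rose, beside 3.96% of 12407 genes that rose and 2.97% that fell (6.93% together).

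Counted by separation instead, 6 of the 9 genes were higher in all labelled C3aR-positive APP-KI than in all labelled C3aR-positive WT libraries and 1 was lower, beside 17.8% and 25.7% of genes (43.5% together). In APP-KI against WT, 2 were higher and 3 lower without overlap, beside 12.8% and 16.4% (29.3% together). In double-mutant against C3aR-KO libraries, 1 was higher and 1 lower, beside 6.34% and 7.34% (13.7% together). Without the 4 libraries with few genes, 2 of the 9 genes rose and 2 fell in APP-KI against WT, beside 13.2% and 14.7% of 12563 genes (27.9% together). There, 3 rose and 2 fell in double-mutant against C3aR-KO libraries, beside 13.2% and 18.2% (31.3% together), with a single C3aR-KO library that was assumed to vary like the other groups. With APP-KI replicate 5 left out as well, 15.7% and 34.3% of 12136 genes were called in these comparisons.

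**Figure D1:**
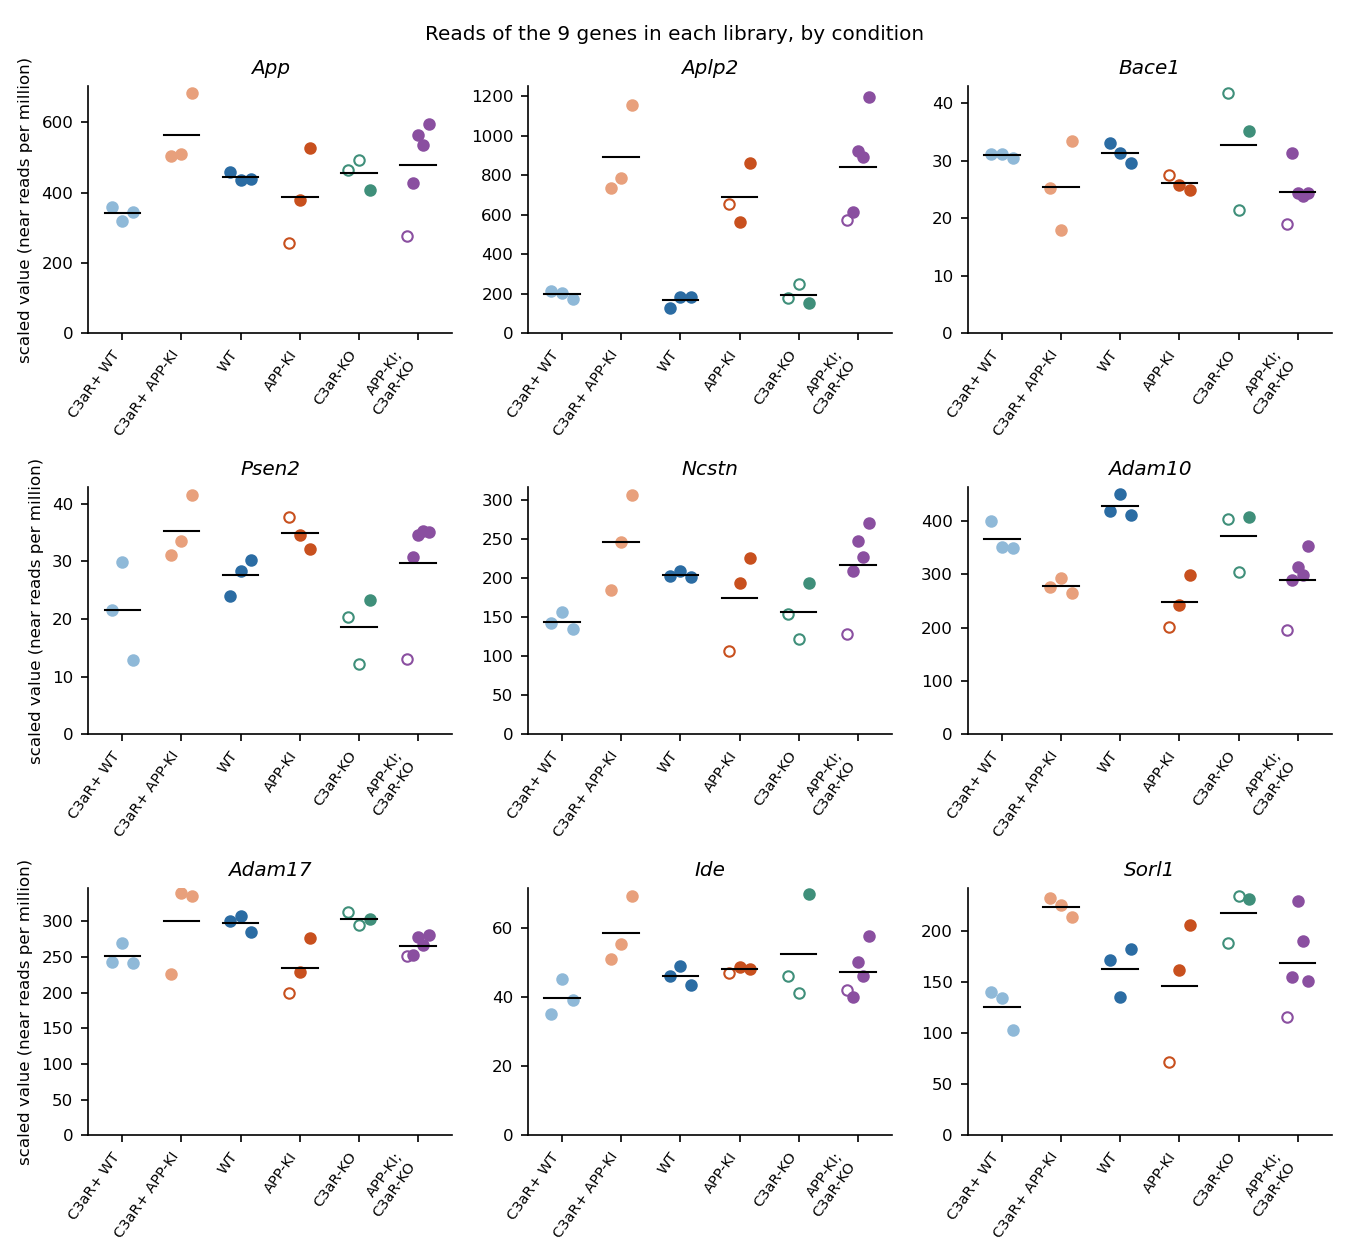
Scaled value (vertical axis, linear, near CPM) of the 9 genes in each of the 20 libraries by condition, with C3aR+ for libraries labelled C3aR-positive; points are libraries, bars are means and open points are the 4 libraries with a read on fewer than 14000 genes. All knock-in libraries lie above all others for Aplp2 (562 to 1197 against 130.2 to 248). In APP-KI and in double-mutant libraries the open points are the lowest of their group for App, Ncstn, Adam10, Adam17 and Sorl1.

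**Figure D2:**
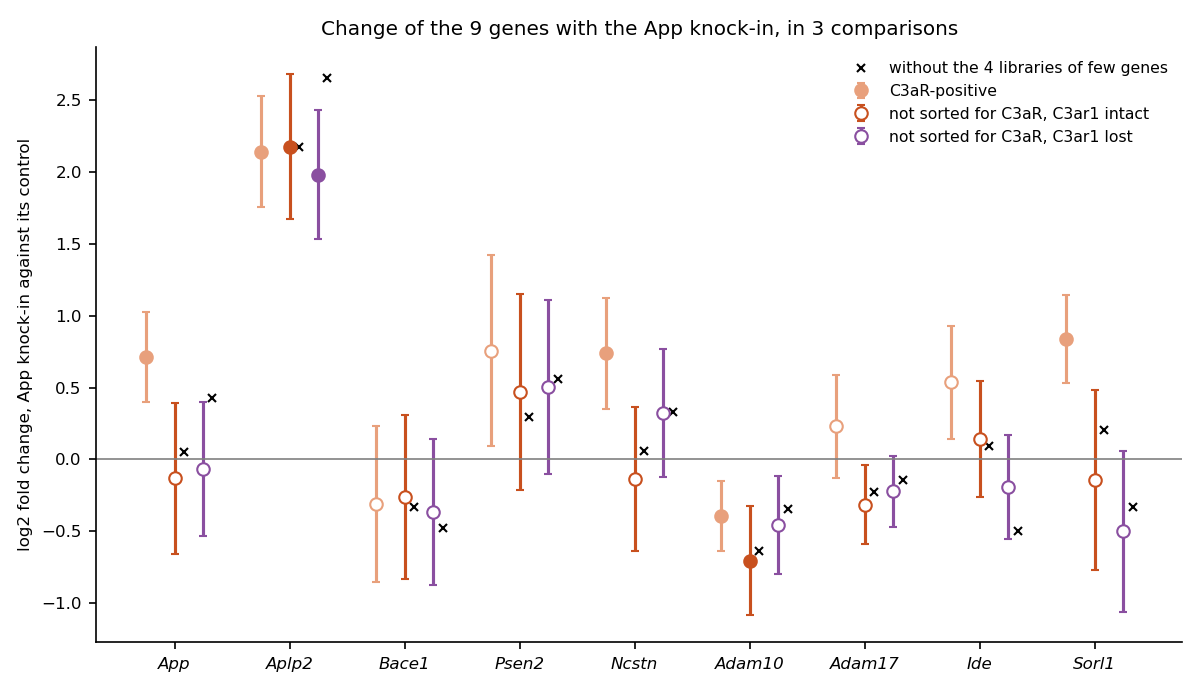
Log2 fold change with the App knock-in (vertical axis) of the 9 genes in 3 comparisons: libraries labelled C3aR-positive, unselected libraries with C3ar1 intact and unselected libraries with C3ar1 lost; whiskers are 95% confidence intervals from limma, filled points have an adjusted p under 0.05 and crosses give the value without the 4 libraries with few genes. Aplp2 stands at 2.14, 2.18 and 1.98, apart from the other 8 genes.

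Aplp2 and Adam10 both lie on chromosome 9, as do Bace1 and Sorl1. By limma with all libraries they were the only ones of the 9 genes called in more than 1 of the comparisons. Their directions were opposite, and the sequence just before their starts is shown. It is the 250 bases upstream of the RefSeq start in GRCm38.p6, 5′ to 3′ on the gene's strand. For Aplp2 this window is chr9:31211849-31212098 on the minus strand, and for Adam10 chr9:70678732-70678981 on the plus strand. Capitals mark the GC box (GGGCGG), the CCAAT box (CCAAT) and the E-box (CACGTG), searched on both strands.
Aplp2: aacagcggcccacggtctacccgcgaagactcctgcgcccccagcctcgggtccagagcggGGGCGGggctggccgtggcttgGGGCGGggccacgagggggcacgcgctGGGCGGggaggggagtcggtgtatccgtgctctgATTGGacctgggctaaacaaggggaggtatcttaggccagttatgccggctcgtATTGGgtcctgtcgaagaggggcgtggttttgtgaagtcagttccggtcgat
Adam10: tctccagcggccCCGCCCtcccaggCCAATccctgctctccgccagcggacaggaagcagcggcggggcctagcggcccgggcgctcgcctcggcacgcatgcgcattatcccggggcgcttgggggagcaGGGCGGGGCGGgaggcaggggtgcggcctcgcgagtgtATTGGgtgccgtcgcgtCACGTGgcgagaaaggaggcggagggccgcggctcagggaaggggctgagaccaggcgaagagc
Both windows were rich in G and C (66.4% for Aplp2 and 74.0% for Adam10, beside a median of 52.4% over 32851 windows of the same length). Each held 3 GC boxes and 2 CCAAT boxes, which 32.7% and 33.8% of all windows held at least once. In Adam10, a pair of the GC boxes share a base. Adam10 also held 1 E-box, found in 6.02% of windows, as did 1 window each of Psen2 and Sorl1. The AP-1 letters TGANTCA (6.75% of windows) and the letters GAGGAA, part of PU.1 sites (23.3%), matched in neither. Of the 9 genes 8 were listed, Psen2 and Sorl1 with 2 windows each, and among the other 6 genes App, Adam17 and 1 window each of Psen2 and Sorl1 held a GC box.

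Levels were compared between genes per kilobase of the longest protein-coding transcript. In WT, Adam10 was highest (93.1 ± 4.50, SD, n = 3), followed by Ncstn (70.4 ± 1.49), Adam17 (66.7 ± 2.50), App (54.4 ± 1.51) and Aplp2 (45.8 ± 8.65). Sorl1 (15.2 ± 2.31), Psen2 (13.7 ± 1.58), Ide (9.32 ± 0.560) and Bace1 (5.18 ± 0.288) were lower. By this measure the α-secretase genes stood more than 10 times above the β-secretase gene. Sorl1 and Psen2 were the only neighbours in this order whose libraries overlapped. In APP-KI, Aplp2 was highest (190.2 ± 41.9), while Ncstn, Adam10, Adam17 and App, with means of 47.5 to 60.3, had overlapping libraries, and Bace1 was again lowest (4.30 ± 0.228). Dividing by the union of all annotated exons lowered App in WT to 34.2 ± 0.948 and kept the order of the means there. Adam17 and Bace1 were then at 41.7 and 4.94 in WT, less than 10 times apart. In APP-KI the union of exons placed Adam10 above Ncstn (50.3 and 44.0) and Sorl1 above Psen2, the reverse of the order per transcript length.

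App (chromosome 16, 84949685 to 85173766, minus strand) is the substrate of the pathway. Its scaled value in the labelled C3aR-positive libraries was 359.6, 319.7 and 345 in WT and 504, 509 and 682 in APP-KI. Every APP-KI library was above every WT library, and App rose by a log2 fold change of 0.71 (SE 0.14, limma adjusted p = 0.00589). The median of all genes tested was -0.17 in this comparison with the authors' scaling, and with median ratio scaling App rose by 0.85. In the unselected libraries App was 458, 435 and 439.5 in WT and 258, 379 and 528 in APP-KI, with APP-KI on both sides of WT (log2 fold change -0.13, 95% confidence interval -0.66 to 0.39, limma adjusted p = 0.97). The lowest APP-KI library was replicate 4, and without the 4 libraries with few genes the log2 fold change was 0.05. App was 463, 493 and 409 in C3aR-KO and 278, 427, 563, 537 and 594 in double-mutant libraries. The groups overlapped (log2 fold change -0.07, limma adjusted p = 0.90), and without the 4 libraries the difference was 0.43 with a limma adjusted p of 0.0600. Within the library series numbered 24, App was lower with the knock-in, by -0.55 in APP-KI (2 against 1 libraries) and -0.47 in double-mutant libraries (2 against 2) on the log2 scale. Within series 26 it was higher, by 0.27 (1 against 2) and 0.46 (3 against 1). The 4 libraries with few genes and APP-KI replicate 5 are all in series 24, and they include every APP-KI and C3aR-KO library of that series. For these differences, series and these libraries thus cannot be told apart.

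Aplp2 (chromosome 9, 31149557 to 31211815, minus strand) encodes a relative of APP that lacks the Aβ sequence and is cut by the same secretases. In the labelled C3aR-positive libraries it stood at 215, 203 and 176 in WT and at 736, 787 and 1155 in APP-KI, a rise of 2.14 on the log2 scale or 4.42-fold (SE 0.17, limma adjusted p = 6.384e-05). In the unselected libraries it was 130.2, 184 and 186 in WT and 652, 562 and 859 in APP-KI, a rise of 2.18 (SE 0.24, limma adjusted p = 6.135e-05). Without C3ar1 it was 177, 248 and 155 in C3aR-KO and 572, 612, 923, 892 and 1197 in double-mutant libraries, a rise of 1.98 (SE 0.21, limma adjusted p = 3.111e-05). The 3 comparisons share no library, although the last 2 come from 1 fit. All 11 libraries with the App knock-in lay above all 9 without it, as was the case for 2.68% of 12374 genes expressed at a mean of 1 or more. The call held under each alternative run in the 3 comparisons, with log2 fold changes of 1.57 to 2.65. Within series 24 and 26 the difference was 2.21 and 2.21 in APP-KI and 1.49 and 2.68 in double-mutant libraries.

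The ratio of Aplp2 to App reads within a library does not depend on how libraries are scaled. It was 0.598, 0.636 and 0.509 in labelled C3aR-positive WT and 1.46, 1.54 and 1.69 in labelled C3aR-positive APP-KI libraries. It was 0.284, 0.422 and 0.422 in WT and 2.53, 1.48 and 1.63 in APP-KI, with the highest value in replicate 4. App reads thus outnumbered Aplp2 reads in WT and the reverse held in APP-KI. The ratio was 0.382, 0.503 and 0.379 in C3aR-KO and 2.06, 1.43, 1.64, 1.66 and 2.02 in double-mutant libraries. Over all conditions it was 0.284 to 0.636 in the 9 libraries without the knock-in and 1.43 to 2.53 in the 11 with it, or 1.43 to 2.02 with the knock-in when the 4 libraries with few genes were left out. The ratio was chosen after the values of both genes had been seen, and is given without a test.

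**Figure D3:**
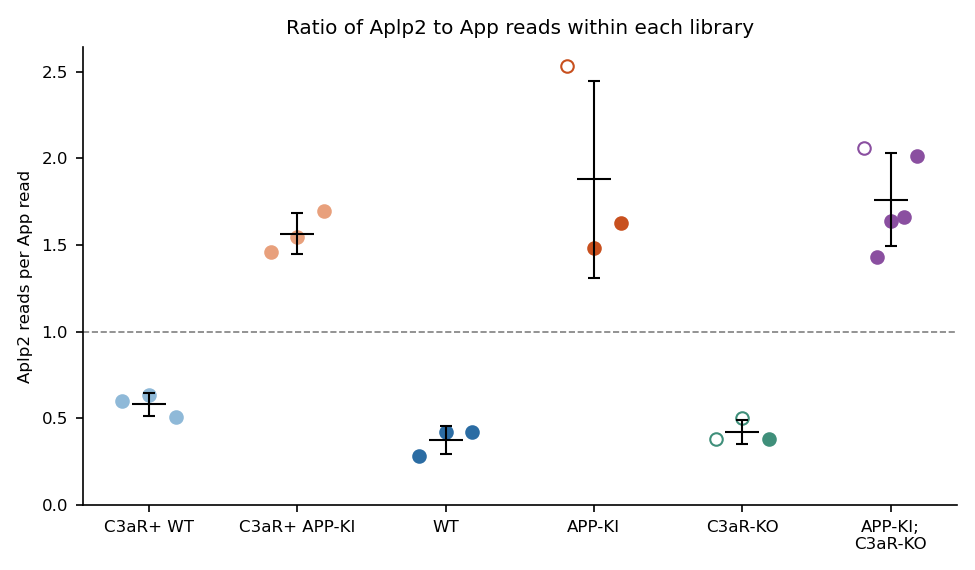
Aplp2 reads per App read (vertical axis, linear) in each library by condition, with C3aR+ for libraries labelled C3aR-positive; bars give the mean and SD, open points are the 4 libraries with few genes, and the dashed line marks equal reads of both genes. The 9 libraries without the App knock-in lie between 0.284 and 0.636 and the 11 with it between 1.43 and 2.53.

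Bace1 (chromosome 9, 45838580 to 45864399, plus strand), the β-secretase that makes the first cut toward Aβ, was low in all libraries, at scaled values of 17.9 to 41.8. It was 31.2, 31.1 and 30.4 in labelled C3aR-positive WT and 25.2, 17.9 and 33.4 in labelled C3aR-positive APP-KI, which overlapped. It was 33.1, 31.4 and 29.6 in WT and 27.6, 25.7 and 24.9 in APP-KI, where all APP-KI libraries were lower. It was 41.8, 21.5 and 35.1 in C3aR-KO and 19.1, 31.4, 24.4, 23.9 and 24.4 in double-mutant libraries, which overlapped. The log2 fold changes with the knock-in were -0.31, -0.26 and -0.37, with limma adjusted p of 0.37, 0.88 and 0.42. Without the 4 libraries with few genes Bace1 fell in APP-KI (-0.33, limma adjusted p = 0.0215) and in double-mutant libraries (-0.48, limma adjusted p = 0.0100). The first of these calls was lost with APP-KI replicate 5 left out as well (0.18). Bace2, its homologue, had a mean below 1 in every condition and was not tested.

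Psen2 and Ncstn encode parts of γ-secretase, PSEN2 one of its alternative catalytic subunits and nicastrin a subunit that binds substrates. Psen2 (chromosome 1, 180227004 to 180263438, minus strand) was 21.6, 29.9 and 12.8 in labelled C3aR-positive WT and 31.0, 33.4 and 41.4 in labelled C3aR-positive APP-KI. It was 24.1, 28.4 and 30.3 in WT and 37.7, 34.6 and 32.2 in APP-KI. In both sorts all APP-KI libraries were above all WT libraries, but the limma adjusted p was 0.0931 (log2 fold change 0.76) and 0.69 (0.47). Psen2 was 20.3, 12.2 and 23.3 in C3aR-KO and 13.1, 30.7, 34.5, 35.3 and 35.0 in double-mutant libraries, which overlapped (0.50, limma adjusted p = 0.34). The lowest double-mutant library was replicate 1, with few genes. Without the 4 such libraries Psen2 rose in APP-KI (0.30, limma adjusted p = 0.0385) and in double-mutant libraries (0.56, limma adjusted p = 0.00569), the first call being lost without APP-KI replicate 5 (0.33). Without double-mutant replicate 1 alone the double-mutant difference was 0.79 (limma adjusted p = 0.0240). In the labelled C3aR-positive comparison Psen2 passed with DESeq2 (adjusted p = 0.0491) and without C3aR-positive WT replicate 2 (1.02, limma adjusted p = 0.0487).

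Ncstn (chromosome 1, 172066013 to 172082795, minus strand) was 142, 156 and 134 in labelled C3aR-positive WT and 185, 246 and 306 in labelled C3aR-positive APP-KI. It rose without overlap by 0.74 (SE 0.17, limma adjusted p = 0.0135), a call lost with no filter on low values (0.0501), with limma without a trend (0.0676) and without C3aR-positive WT replicate 3 (0.0540). In the unselected libraries Ncstn was 202, 209 and 202 in WT and 106, 193 and 226 in APP-KI, so that APP-KI lay on both sides of WT (-0.14, 95% confidence interval -0.63 to 0.36, limma adjusted p = 0.96, and 0.06 without the 4 libraries with few genes). It was 153, 122 and 194 in C3aR-KO and 128, 209, 248, 227 and 270.3 in double-mutant libraries, which overlapped (0.32, limma adjusted p = 0.41, and 0.0481 without the 4 libraries with few genes). That call was lost with APP-KI replicate 5 left out as well (0.0588). Of the 7 γ-secretase genes tested, Ncstn alone passed in the labelled C3aR-positive comparison (14.3%, beside 22.7% of all genes) and none in the other 2, where 4.14% and 6.93% of all genes passed (medians -0.08, -0.14 and 0.32, beside -0.17, -0.01 and -0.03 over all genes).

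Adam10 (chromosome 9, 70678997 to 70780229, plus strand) encodes the main constitutive α-secretase, which also sheds TREM2 from the microglial surface. In the labelled C3aR-positive libraries it was 399, 352 and 348 in WT and 276, 293 and 266 in APP-KI. It fell without overlap by 0.39 on the log2 scale (SE 0.11, limma adjusted p = 0.0282), beside a median of -0.17 over all genes. The call was lost with median ratio scaling (-0.26, limma adjusted p = 0.13), with limma without a trend (0.10), with edgeR (adjusted p = 0.11) and with DESeq2 (adjusted p = 0.10). It was also lost without C3aR-positive WT replicate 1, 2 or 3 or C3aR-positive APP-KI replicate 1 (limma adjusted p 0.10, 0.0645, 0.0637 and 0.0601). In the unselected libraries Adam10 was 419.5, 451 and 412 in WT and 201, 242 and 299 in APP-KI, and it fell without overlap by 0.70 (SE 0.18, limma adjusted p = 0.0390). That call was lost without WT replicate 4, 5 or 6 (limma adjusted p 0.33, 0.11 and 0.0619) and without APP-KI replicate 4, 5 or 6 (0.12, 0.0599 and 0.11). It was lost as well without C3aR-KO replicate 3 (0.0578) or double-mutant replicate 3 or 4 (0.0662 and 0.0659), and with edgeR (adjusted p = 0.0578). It held without the 4 libraries with few genes (-0.64, limma adjusted p = 0.00129), and the log2 fold change lay between -0.81 and -0.54 under all 28 alternatives. In C3aR-KO Adam10 was 404, 305 and 408 and in double-mutant libraries 196, 289.6, 313, 298 and 354. These overlapped, with a log2 fold change of -0.45 (SE 0.16, limma adjusted p = 0.11). It was -0.34 without the 4 libraries (limma adjusted p = 0.0527), and with APP-KI replicate 5 left out as well it passed (-0.36, limma adjusted p = 0.0399). Of the 11 libraries with the knock-in, 9 lay below all 9 libraries without it.

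Adam17 (chromosome 12, 21323509 to 21373632, minus strand) encodes the regulated α-secretase, best known for releasing TNF, and with all libraries passed the limma test in none of the 3 comparisons. It was 244, 269.6 and 242 in labelled C3aR-positive WT and 226, 340 and 335 in labelled C3aR-positive APP-KI, which overlapped (0.23, limma adjusted p = 0.32). The lowest of these APP-KI libraries was replicate 1, and without it Adam17 was higher by 0.42 and passed (limma adjusted p = 0.0367). It was 301, 308 and 286 in WT and 200, 229 and 276 in APP-KI. It was 313, 295 and 303 in C3aR-KO and 252, 253, 278, 267 and 281 in double-mutant libraries. In both unselected comparisons all knock-in libraries were below all control libraries, with log2 fold changes of -0.31 and -0.22 (limma adjusted p = 0.29 and 0.30). They were -0.23 and -0.14 without the 4 libraries with few genes (limma adjusted p = 0.0633 and 0.31). The ratio of Adam10 to Adam17 reads was 1.30 to 1.64 in labelled C3aR-positive WT and 0.792 to 1.22 in labelled C3aR-positive APP-KI, and 1.40 to 1.47 in WT and 1.00 to 1.08 in APP-KI. With C3ar1 lost the ratio overlapped, at 1.03 to 1.35 in C3aR-KO and 0.777 to 1.26 in double-mutant libraries. With the 4 libraries left out it was 1.35 in the 1 C3aR-KO library left and 1.12 to 1.26 in double-mutant libraries. This ratio, too, was chosen after the values were seen.

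Ide (chromosome 19, 37268743 to 37337852, minus strand), the metalloprotease that degrades insulin and Aβ, was 35.1, 45.4 and 39.3 in labelled C3aR-positive WT and 51.1, 55.4 and 69.3 in labelled C3aR-positive APP-KI. The groups did not overlap, but the log2 fold change of 0.54 missed the threshold (SE 0.18, limma adjusted p = 0.0526). It passed with median ratio scaling (0.67, limma adjusted p = 0.0303), with a filter at a mean scaled value of 5 (limma adjusted p = 0.0476), with edgeR (adjusted p = 0.0299), with DESeq2 (adjusted p = 0.0126) and without C3aR-positive APP-KI replicate 1 (limma adjusted p = 0.0491). In the unselected libraries it was 46.2, 49.1 and 43.5 in WT and 47.2, 48.9 and 48.4 in APP-KI, which overlapped (0.14, limma adjusted p = 0.93, and 0.09 without the 4 libraries with few genes). It was 46.1, 41.3 and 70.0 in C3aR-KO and 42.1, 40.0, 50.3, 46.1 and 57.9 in double-mutant libraries, which overlapped (-0.19, limma adjusted p = 0.57). Without the 4 libraries with few genes the highest C3aR-KO library, replicate 3, was the only control left, and Ide fell (-0.50, limma adjusted p = 0.0352). Without replicate 3, in turn, the difference was 0.01.

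Sorl1 (chromosome 9, 41964720 to 42124297, minus strand) encodes a sortilin-family receptor that binds APP and, with the retromer, returns it from endosomes. It was 140.4, 134 and 103 in labelled C3aR-positive WT and 233, 225 and 214 in labelled C3aR-positive APP-KI. It rose without overlap by 0.84 (SE 0.14, limma adjusted p = 0.00230), and the call held in 15 of 16 alternatives, all but a threshold of 0.0005. In the unselected libraries it was 172, 135 and 182 in WT and 71.7, 162 and 206 in APP-KI, with APP-KI replicate 4 the lowest of all 20 libraries (-0.14, 95% confidence interval -0.77 to 0.48, limma adjusted p = 0.97). With the 4 libraries left out this was 0.20 (limma adjusted p = 0.47). It was 188, 234 and 232 in C3aR-KO and 116, 155, 229.5, 191 and 151 in double-mutant libraries, which overlapped (-0.50, limma adjusted p = 0.30, and -0.33 with 0.33 without the 4 libraries).

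Loss of C3ar1 was not seen to change any of the 9 genes. In C3aR-KO against WT with all libraries, 0 of them passed the test by limma, edgeR or DESeq2 and 0 had an unadjusted limma p under 0.05. Beside this, 0.00806% of 12407 genes were called by limma, which is C3ar1 itself. Sorl1 was higher and Psen2, Ncstn and Adam10 were lower in all C3aR-KO than in all WT libraries, as were 9.16% and 9.31% of genes (18.5% together). Log2 fold changes of the 9 ran from -0.44 to 0.55. Aplp2 was at 0.34 (95% confidence interval -0.17 to 0.84) and App at 0.15 (-0.37 to 0.68). Without the 4 libraries with few genes, which leaves a single C3aR-KO library, both turned, to -0.29 and -0.21. The values of the 9 then ran from -0.29 for Aplp2 to 0.54 for Ide. In double-mutant against APP-KI libraries, again 0 of the 9 passed by limma, edgeR or DESeq2 and 0 had an unadjusted limma p under 0.05, beside 0.00806% of genes called. None of the 9 separated there without overlap, as 1.61% of genes did. App differed by 0.22 (-0.25 to 0.68), Aplp2 by 0.14 (-0.31 to 0.59) and Adam10 by 0.14 (-0.20 to 0.48). These were 0.17, 0.19 and 0.18 without the 4 libraries, and with each library left out in turn they ran from 0.02 to 0.41, 0.05 to 0.24 and 0.05 to 0.27. App was lowest there without APP-KI replicate 4 and highest without APP-KI replicate 6.

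The effect of the knock-in was not shown to differ with C3ar1 status. This interaction was -0.20 for Aplp2 (95% confidence interval -0.89 to 0.50) and 0.25 for Adam10 (-0.27 to 0.77). The value for Aplp2 turned without the 4 libraries with few genes, to 0.48 (limma adjusted p = 0.33) and that for Adam10 was 0.30. With all libraries, 0 of the 9 genes passed by limma, edgeR or DESeq2, 0 had an unadjusted limma p under 0.05, and 0.00% of genes were called by limma. Without the 4 libraries, which leaves a single C3aR-KO library, the values of the 9 ran from -0.59 for Ide to 0.48 for Aplp2.

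The effect of the knock-in in the libraries labelled C3aR-positive was set against that in the unselected libraries in 1 fit of 12 libraries. By limma, edgeR and DESeq2, 0 of the 9 genes passed (0.00% of 12589 genes were called by limma). The difference of log2 fold changes was 0.85 for App (95% confidence interval 0.23 to 1.47), 0.92 for Ncstn (0.19 to 1.64) and 0.98 for Sorl1 (0.08 to 1.87), each with a limma adjusted p of 0.67. Without the 4 libraries with few genes it was 0.67, 0.69 and 0.65, with limma adjusted p of 0.45, 0.47 and 0.48. With APP-KI replicate 5 left out as well it was 0.44, 0.60 and 0.44, each with a limma adjusted p of 1.00, and with each library left out in turn it ran from 0.44 to 1.26, 0.60 to 1.23 and 0.44 to 1.51. Side by side, the means in labelled C3aR-positive and unselected WT libraries were 341 ± 20.2 and 444 ± 12.3 (SD, n = 3) for App and 144 ± 11.0 and 204 ± 4.32 for Ncstn. In APP-KI they were 565 ± 101 and 388 ± 135 for App and 246 ± 60.8 and 175 ± 61.7 for Ncstn. App, Ncstn, Adam10 and Adam17 were lower without overlap in the labelled C3aR-positive WT than in the unselected WT libraries and none was higher, beside 13.2% and 9.74% of 12589 genes. In APP-KI, Ide and Sorl1 were higher without overlap in the labelled C3aR-positive libraries and none was lower, beside 1.86% and 4.21%. Sort, reporter line and library series cannot be told apart there, and no test was made.

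Genes that work with these 9 were counted in lists of 75 genes in all, and the shares called are read beside those of all genes, 22.7% in the labelled C3aR-positive comparison, 4.14% in APP-KI against WT and 6.93% in double-mutant against C3aR-KO libraries. The median log2 fold changes of all genes were -0.17, -0.01 and -0.03. Of the list genes other than the 9 followed here, the 5 called in APP-KI against WT were all called without the 4 libraries with few genes too. There 20 further ones of 56 passed, beside 27.9% of all genes called in that setting. In double-mutant against C3aR-KO libraries 9 of these list genes were called with all libraries, and that setting leaves a single C3aR-KO library. Adam9, a further ADAM protease able to cut APP, rose in the labelled C3aR-positive comparison (70.7 ± 2.84 to 131 ± 13.1, SD, n = 3, log2 fold change 0.87, limma adjusted p = 0.00113). It differed by 0.01 in APP-KI against WT and by 0.31 in double-mutant against C3aR-KO libraries. Without the 4 libraries with few genes these differences were 0.20 and 0.51. Of 9 tested partners and inhibitors of ADAM10 and ADAM17, 2 rose and 1 fell in the labelled C3aR-positive comparison, or 33.3% against 22.7% of all genes (median -0.13). Timp2, an inhibitor of metalloproteases, rose from 451 ± 19.4 to 1261 ± 383 (1.44, limma adjusted p = 0.000746). Tspan5, a tetraspanin that carries ADAM10 to the surface, rose from 9.91 ± 0.829 to 35.7 ± 7.15 (1.74, limma adjusted p = 0.00117), while Tspan14, another such tetraspanin, fell by 0.45 (limma adjusted p = 0.0329). None of these 9 partners and inhibitors passed by limma in the other 2 comparisons, where their medians were 0.15 and 0.06. Without the 4 libraries with few genes, Tspan5, Tspan17 and Timp2 passed as higher in APP-KI against WT (0.81, 0.89 and 0.96). Tspan14 and Tspan33 passed as lower there (-0.70 and -0.67), beside 27.9% of all genes called. In double-mutant libraries, against the single C3aR-KO library left, these 3 and 2 genes differed by 0.77, 1.22, 1.26, -0.38 and -0.66.

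Among 10 tested proteases that can degrade Aβ, 3 rose and 1 fell in the labelled C3aR-positive comparison, 1 rose in APP-KI against WT and 2 rose in double-mutant against C3aR-KO libraries (40%, 10% and 20% called, beside 22.7%, 4.14% and 6.93% of all genes; medians 0.51, 0.42 and 0.21). Plau, the urokinase plasminogen activator, rose in all 3, by 2.05, 1.95 and 2.23 (limma adjusted p = 0.000371, 0.000112 and 6.291e-06). The lysosomal cathepsin gene Ctsb rose in the first and the last, by 1.82 and 1.39 (limma adjusted p = 0.000248 and 0.0334), and Ctsd in the first, by 1.93 (limma adjusted p = 0.000384). Mmp2, a gelatinase, fell by 1.25 in the first (limma adjusted p = 0.00220). In APP-KI against WT, Ctsb, Ctsd and Mmp2 differed by 1.12, 0.88 and -0.94, none passing with all libraries. Without the 4 libraries with few genes they passed there (1.30, 1.14 and -0.94), beside 27.9% of all genes called. In double-mutant against C3aR-KO libraries Ctsd and Mmp2 differed by 1.09 and -1.27 and did not pass.

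Of 8 tested genes of the sortilin family and the retromer, 1 rose and 1 fell in the labelled C3aR-positive comparison, 0 moved in APP-KI against WT and 1 rose in double-mutant libraries (25%, 0% and 12.5% called, beside 22.7%, 4.14% and 6.93% of all genes; medians 0.14, -0.15 and -0.00). Sort1, the gene of sortilin, fell by 0.55 (limma adjusted p = 0.0314) while Sorl1 rose. The retromer gene Vps29 rose by 0.81 in double-mutant libraries (limma adjusted p = 0.0113, and by 0.49 without the 4 libraries with few genes), and Vps35, the retromer core, had differences of 0.08, -0.16 and 0.21 in the 3 comparisons (limma adjusted p = 0.72, 0.95 and 0.64).

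Of 12 tested adaptors of APP and BACE1, 4, 1 and 1 rose in the 3 comparisons, and none fell (33.3%, 8.33% and 8.33% called, beside 22.7%, 4.14% and 6.93% of all genes; medians 0.17, -0.04 and 0.11). Apbb2, whose product binds the cytoplasmic tail of APP, rose in all 3, by 1.84, 1.64 and 1.83 (limma adjusted p = 1.852e-05, 0.00212 and 0.000211). Itm2b and Itm2c, which encode BRI proteins that bind APP, and the BACE1 adaptor gene Gga2 rose in the labelled C3aR-positive comparison, by 0.56, 1.04 and 1.04 (limma adjusted p = 0.0360, 0.0122 and 0.00480).

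Of 12 receptors that bind or take up Aβ or its carriers, 6 rose and 2 fell in the labelled C3aR-positive comparison, 3 rose in APP-KI and 5 in double-mutant libraries (66.7%, 25% and 41.7% called, beside 22.7%, 4.14% and 6.93% of all genes; medians 0.64, 0.20 and 0.25). Axl, a TAM receptor, rose by 3.16, 2.91 and 3.28 (limma adjusted p = 1.638e-05, 5.386e-05 and 3.193e-06). Scarb1, a scavenger receptor, rose by 1.36, 1.27 and 1.35. Trem2, Cd14 and Tlr2 rose by 1.20, 1.02 and 1.47 in the labelled C3aR-positive comparison, while Tlr4 and the scavenger receptor gene Cd36 fell by 0.72 and 1.42 (limma adjusted p = 0.00638 and 0.0400). Trem2 and Tlr2 also rose in double-mutant libraries, by 1.07 and 1.51 (limma adjusted p = 0.00677 and 0.000151), where Cd14 differed by 0.61. In APP-KI against WT, Trem2, Cd14 and Tlr2 differed by 0.86, 0.42 and 0.63, none passing with all libraries. Without the 4 libraries with few genes they passed there (0.99, 0.59 and 0.62), beside 27.9% of all genes called. Tlr4 and Cd36 were at -0.88 and -1.16 in APP-KI and at -0.18 and -0.60 in double-mutant libraries. Aplp2, Apbb2, Plau, Axl and Scarb1 were among the list genes called in all 3 comparisons.

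**Figure D4:**
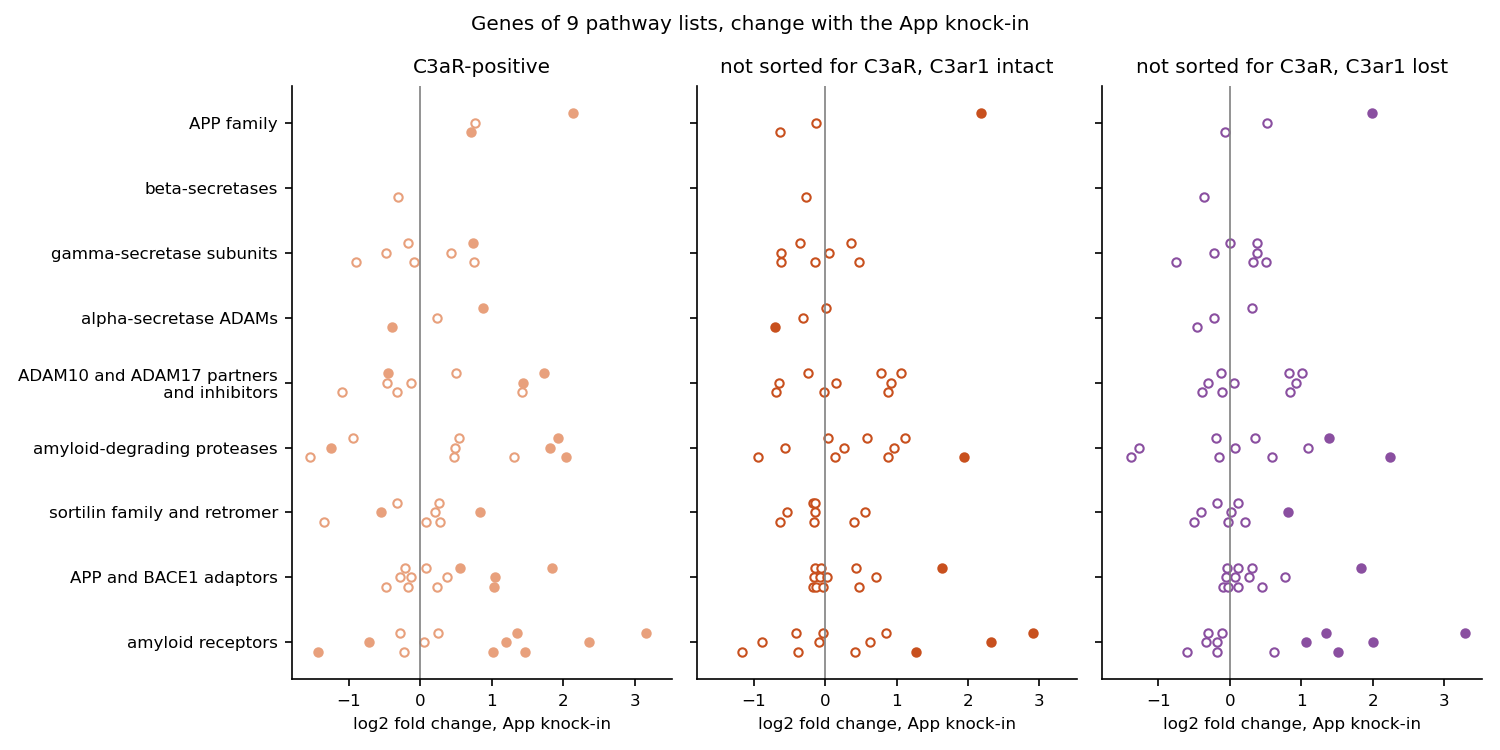
Log2 fold change with the App knock-in (horizontal axis) of the tested genes of 9 pathway lists (rows), in libraries labelled C3aR-positive (left) and in unselected libraries with C3ar1 intact (middle) or lost (right); each point is a gene and filled points have a limma adjusted p under 0.05. The receptor list spreads from -1.42 to 3.16 on the left.

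The genes most like each of the 9 were found across the 20 libraries among 12374 genes, after the mean of each library series was subtracted. These libraries share the knock-in and the libraries with few genes, so Pearson's r is given as a description. Aplp2 was most like Myo1e, a class I myosin (0.991), Rab7b (0.988) and Hif1a, the oxygen-regulated transcription factor subunit (0.988). Adam10 was most like Sall1, a transcription factor of microglial identity (0.979), Nr3c1, the glucocorticoid receptor (0.976), and Acp2 (0.967). App was closest to Canx, a chaperone of the endoplasmic reticulum (0.931), Rab7, a GTPase of late endosomes (0.926), and Slc39a1 (0.925). Ncstn was closest to the lysosomal protease gene Tpp1 (0.963), Sirpa (0.956) and Uhmk1 (0.953). For Psen2 these were Gpx3 (0.943), Itpripl2 (0.926) and Lancl2 (0.924), and for Bace1 Tle4 (0.899), Usf3 (0.885) and Zfp420 (0.871). The closest to Sorl1, Adam17 and Ide, Rab44 (0.819), Kars (0.813) and Tln2 (0.792), had lower values. Among the 9, the strongest r were -0.815 between Aplp2 and Adam10, 0.762 between App and Ncstn and 0.760 between App and Sorl1. Leaving out the 4 libraries with few genes gave -0.879, 0.918 and 0.611, and the closest gene to each of the 9 as named had an r of 0.716 to 0.995.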

How the data were processed

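Libraries were made with the SMARTer Pico kit. The authors trimmed reads with cutadapt, aligned them with TopHat to mm10 and counted them with featureCounts. The deposited values are named FPKM but were found to be a signal in another unit, the read count of a gene over the 75th percentile of its library, and gene length does not enter. All values (100%) gave back whole reads (tolerance 0.02). A factor of 35.2 gave the scaled value, in which 1 read counts for 0.0132 to 0.0786, the limit set by depth. The design had been written for FPKM, and its test was kept: limma 3.58.1 (R 4.3.3, trended, two-sided) on log2(scaled value + 1), which understates changes of low genes, for genes with a mean of 1 or more, with Benjamini-Hochberg adjustment over all of them and a threshold of 0.05. The 6 libraries labelled C3aR-positive were fitted alone, and the 14 others together with a term for library series, taken from the first digits of the library numbers. Alternatives were edgeR 4.0.16 and DESeq2 1.42.0 on recovered reads, other filters, scalings, pseudocounts and models, and each library left out. The limma script was tested on simulated data. Named genes are the 9 genes and C3ar1, list genes past the threshold with up to 4 others of a list, and the 3 most similar genes, less some items that are not reported here. Genes, lists and tests were chosen with earlier results of these data known. The libraries of a group differed by more than counting noise (chi-square per degree of freedom at least 21.6).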

Additional observations from a re-analysis of the deposited data

Results flagged for a closer look

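In double-mutant libraries, the lowest Psen2 value (13.1, replicate 1) stood further below the other 4 libraries than Dixon's 95% limit allows. Chance gives about 1 such case in 20 groups, and 9 groups of this size were looked at, 1 for each gene. The library was also 1 of the 4 with a read on fewer than 14000 genes, and the cause was not tested.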

How the results depend on the processing

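Of the 9 genes, Aplp2 kept its direction and its call in the 3 comparisons of knock-in with control under every alternative run. In APP-KI against WT the count of the 9 genes called was 1 in place of 2, Adam10 being lost, with edgeR, with quantile or median ratio scaling, with no filter, no trend or no library series term, with only the 2 groups compared, and at an adjusted p under 0.0005. It was 3 in place of 5 in the labelled C3aR-positive comparison without a trend, and 1 (Aplp2) at an adjusted p under 0.0005, where 267 genes were called there, 75 in APP-KI against WT, 139 in double-mutant against C3aR-KO, and 0 in C3aR-KO against WT and in double-mutant against APP-KI. Those last 2 comparisons also had 0 genes called without a trend and with only the 2 groups compared, which left 443 in double-mutant against C3aR-KO. No filter gave 2 genes in double-mutant against APP-KI. DESeq2 called 9 genes in C3aR-KO against WT, 1 in the interaction and 37 in the difference between sorts, with 0 of the 9 genes among them.

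Without the 4 libraries with few genes, 3510 genes and 4 of the 9 were called in APP-KI against WT, 2 genes in C3aR-KO against WT, and 3936 genes and 5 of the 9 in double-mutant against C3aR-KO. Without APP-KI replicate 5 as well these were 1904 genes with 2 of the 9, and 4158 genes with 5 of the 9. These settings were chosen after seeing the data, and each leaves a single C3aR-KO library. They turned App (0.0539 and 0.189), Ncstn (0.0584 and 0.0962) and Sorl1 (0.202 and 0.321) in APP-KI against WT, App (-0.21 and -0.18) and Aplp2 (-0.29 and -0.29) in C3aR-KO against WT, App in double-mutant against C3aR-KO (0.43 and 0.41) and Aplp2 in the interaction (0.48 and 0.48). App turned in double-mutant against C3aR-KO with quantile normalization (0.0159) and without the series term (0.0297), Aplp2 in the interaction without that term (0.0447), and App in C3aR-KO against WT with only the 2 groups compared (-0.0179). None of these turned values was called, and the cause was not tested.

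With each library left out in turn, the labelled C3aR-positive comparison gave 1777 to 2528 genes and 3 to 6 of the 9, APP-KI against WT 218 to 837 and 1 to 2, C3aR-KO against WT 0 to 21 genes, double-mutant against APP-KI 0 to 1, and double-mutant against C3aR-KO 614 to 1397 and 1 to 2. The values that turned ranged from -0.33 to 0.0859 for App, -0.31 to 0.10 for Ncstn and -0.43 to 0.22 for Sorl1 in APP-KI against WT, from -0.36 to 0.12 for App and -0.29 to 0.0115 for Ide in double-mutant against C3aR-KO, and from -0.68 to 0.0283 for Aplp2 in the interaction. Libraries of the same replicate number did not deviate together (r from -0.31 to 0.25 over 11 pairs, 3 of them over 0.1), so numbers were not taken to pair libraries. With the replicate block, the paired fit called 2240 genes and 4 of the 9 in the labelled C3aR-positive comparison, where Adam10 was lost (limma adjusted p = 0.0604). It called 673 and 2 in APP-KI against WT and 139 and 1 in double-mutant against C3aR-KO. In double-mutant against APP-KI it called 447 and 0, with App, Aplp2 and Adam10 at 0.85, 0.77 and 0.56, beside 0.22, 0.14 and 0.14 in the main fit. Only replicates 4 and 5 are in both of those groups, in series 24 for APP-KI and in series 26 for the double mutant. This paired difference thus cannot be told apart from library series. APP-KI replicate 4 is also 1 of the 4 libraries with few genes, and APP-KI replicate 5 had a read on 21219 genes. All 9 genes had at least 361 reads in each library. The spread between the 3 libraries of a group, or 5 for the double mutant, limits these comparisons, and its weight against depth was not tested.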
